A study of Mus musculus with 6 samples.

Results

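Blood clotting and clot removal are described here through 34 genes, named one by one, each read at the probe set with the highest mean level for that gene. Of the 34, 32 had a probe set annotated to that gene alone, out of 18193 genes treated alike. Serpine2 and Cpb2 had none, so their levels are not analysed here. The labels describe total RNA from individual E12.5 hearts, of 3 Sp3 knockout and 3 wildtype embryos, each set lettered a to c. The strain, the sex and the design of the knockout allele are not in the labels. Sp3, a transcription factor with zinc fingers, attaches to GC-rich elements in promoters.

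Clotting proceeds through a cascade of plasma proteases, most of them made by hepatocytes as inactive precursors. Tissue factor with factor VII starts it, factors X and V form thrombin from prothrombin, and thrombin turns fibrinogen into fibrin. Serpins, the protein C system and tissue factor pathway inhibitor hold the cascade back, and plasmin, made from plasminogen, removes the clot. Several of these proteins need vitamin K to be made in active form. Endothelial cells, macrophages and platelets supply further members, and in the fetus the liver is also a main site of blood formation.

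Promoter sequence is shown for 5 members, as the 250 bases before the start of the gene in RefSeq on GRCm38.p6. F7 is the member of smallest p, Fga and Fgb are neighbouring fibrinogen genes, and Pros1 and Vkorc1 hold GC boxes, the kind of element that Sp3 binds. Capitals mark the nuclear receptor half-site in F7, the half-site of the liver factor HNF1 in Fga and Fgb, and the GC box in Pros1 and Vkorc1.
F7, chr8:13025784-13026033, plus strand: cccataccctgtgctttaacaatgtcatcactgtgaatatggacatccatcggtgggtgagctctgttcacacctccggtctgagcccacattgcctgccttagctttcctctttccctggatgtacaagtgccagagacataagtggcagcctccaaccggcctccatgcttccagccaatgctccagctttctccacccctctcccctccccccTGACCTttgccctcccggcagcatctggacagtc
Fga, chr3:83025903-83026152, plus strand: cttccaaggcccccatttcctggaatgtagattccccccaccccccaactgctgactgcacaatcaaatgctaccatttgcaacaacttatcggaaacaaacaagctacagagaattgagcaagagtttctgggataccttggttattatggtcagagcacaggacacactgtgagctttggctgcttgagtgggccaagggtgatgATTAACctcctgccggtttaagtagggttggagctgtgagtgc
Fgb, chr3:83049864-83050113, minus strand: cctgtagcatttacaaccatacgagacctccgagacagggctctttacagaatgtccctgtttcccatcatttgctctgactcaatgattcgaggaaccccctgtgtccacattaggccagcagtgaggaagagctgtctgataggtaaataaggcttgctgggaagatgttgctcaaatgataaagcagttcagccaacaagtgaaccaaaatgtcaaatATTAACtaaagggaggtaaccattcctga
Pros1, chr16:62854057-62854306, plus strand: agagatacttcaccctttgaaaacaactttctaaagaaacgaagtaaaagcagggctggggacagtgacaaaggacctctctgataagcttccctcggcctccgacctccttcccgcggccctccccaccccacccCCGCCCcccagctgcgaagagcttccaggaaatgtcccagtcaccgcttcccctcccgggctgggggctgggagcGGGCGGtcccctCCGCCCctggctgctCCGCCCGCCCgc
Vkorc1, chr7:127895618-127895867, minus strand: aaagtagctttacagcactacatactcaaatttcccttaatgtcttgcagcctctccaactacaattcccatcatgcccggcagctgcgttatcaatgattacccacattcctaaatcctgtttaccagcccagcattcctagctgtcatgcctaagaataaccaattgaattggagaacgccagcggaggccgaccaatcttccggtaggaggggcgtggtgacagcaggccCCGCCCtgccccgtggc

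A GC box, GGGCGG on either strand, was present in the 250 bases before the start of 8 of the 26 listed genes found in the promoter table, or 30.8%, against 35.4% of 27025 genes. The 26 include Serpine2, which is 1 of the 8, and Cpb2, both without a probe set. Of the 18 hepatocyte genes among them 2 had it, F5 and Pros1, and the last pair of the 5 matches in Pros1 overlap each other. The related GT box, GGGTGGGG, was in 4 of the 26, against 10.3% of all genes. All motifs were searched on both strands. The HNF1 half-site GTTAAT was in 4 of the 18 hepatocyte genes, Fga, Fgb, F13b and Proz, against 7.49% of all genes. A letter pattern of the liver-enriched C/EBP factors, TTNNGCAA, was in 5 of the 18, against 10.8%. The half-site AGGTCA, read by nuclear receptors such as the liver factor HNF4, was in 6 of the 18, F2, F5, F7, F10, Fgg and Serpinf2, against 15.8%. This half-site took the place of a longer HNF4 pattern after the F7 promoter had been read, so its matches and their share are a description only. The letters TATAAA were in 2 of the 26, against 14.3%. A match shows only that these letters are in the window.

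The knockout label was checked on Sp3 itself, with log2 levels of 8.39, 8.34 and 8.61 in knockout a, b and c, against 9.87, 9.77 and 9.54 in wildtype a, b and c. The tissue label fitted the markers less well. The median level of 12 hepatocyte markers lay at percentile 96.6 of all genes and that of 11 erythroid markers at percentile 98.2, while that of 14 heart muscle markers lay at percentile 30.3. The summed intensity of the heart muscle markers was 1035 to 1078 in knockout, against 391 to 975 in wildtype. Since a level also depends on the probe sequence, such percentiles describe whole lists. Array medians ran from 22.5 to 26.7 intensity units, and the small number of arrays limits precision.

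No member passed the test between Sp3 knockout and wildtype. Limma with an intensity trend called 0 of 32 members higher in knockout, beside 0.0220% of all genes, and 0 lower, beside 0.0275%, at a Benjamini-Hochberg adjusted p under 0.05. In both directions together it called 0.0495% of genes and 0.0311% of probe sets. An unadjusted p under 0.05 was reached by 5 members, or 15.6% against 8.71% of all genes, with 2 higher in knockout beside 3.20% and 3 lower beside 5.51%. Without the trend limma called 0 members and 0.00% of genes, and 2 members had an unadjusted p under 0.05, beside 5.93% of genes. The groups of arrays did not overlap in 5 members, which is 15.6% against 15.1% of all genes. F3, F12 and Vwf had the knockout arrays on top, beside 6.02% of all genes, and F7 and Vkorc1 the wildtype arrays, beside 9.04%. Of the 32 members 13 had a higher and 19 a lower mean in knockout, and 9 a higher one after median centring. The median log2 difference, knockout minus wildtype, was -0.090 over the members and -0.020 over all genes. When an array was left out the members' median ran from -0.18, without wildtype c, to -0.049, without knockout c, with -0.053 without knockout b and -0.053 without wildtype a.

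**Figure D1:**
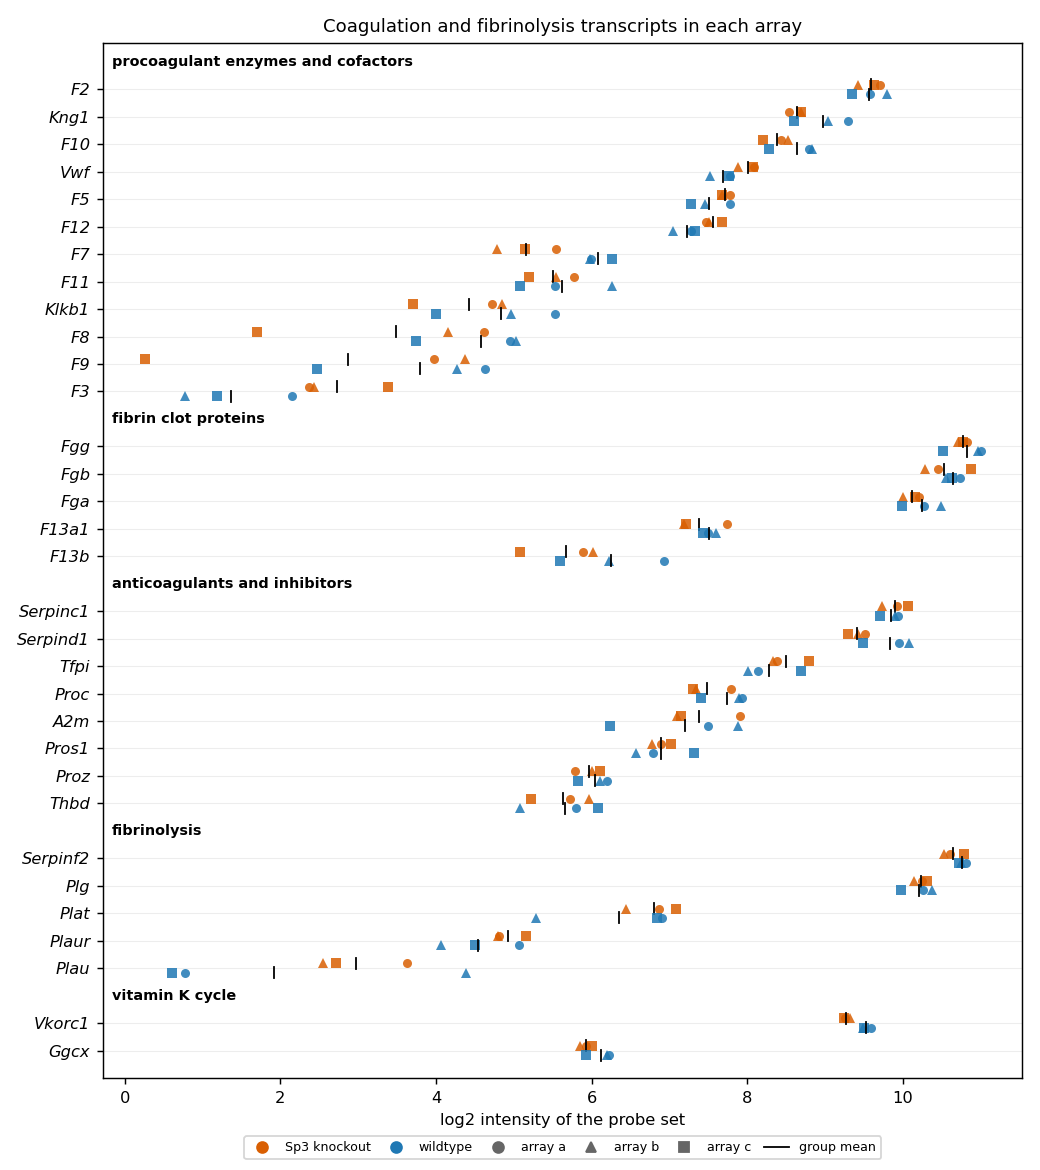
Level of each member in each array, as the log2 of the deposited intensity, with Sp3 knockout in orange above wildtype in blue, a symbol for each letter and a black bar for the group mean. Fgg sits between 10.52 and 10.998, and the symbols of F9, F8 and Plau spread widely.

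Among the procoagulant proteins, F7 had the smallest p of all members. Factor VII is the protease that tissue factor activates at the start of clotting. F7 had log2 levels of 5.54, 4.79 and 5.15 in knockout a, b and c, against 5.99, 5.98 and 6.27 in wildtype a, b and c. Every knockout array lay below every wildtype array. The log2 difference was -0.92 (SE 0.263, 95% interval -1.49 to -0.35), a mean 1.89-fold lower in knockout, with limma adjusted p = 0.520. F7 stands directly beside F10 on chromosome 8, which stands beside Proz. F10, factor X, had log2 levels of 8.43, 8.52 and 8.20 in knockout and 8.79, 8.83 and 8.27 in wildtype. Wildtype a and b lay above all knockout arrays and wildtype c among them, with a log2 difference of -0.25 (95% interval -0.59 to 0.10). The other probe sets of F10 differed by -0.53 and 0.56, so its probe sets did not share a direction. Proz, protein Z, a cofactor of an inhibitor of factor X, averaged 5.97 ± 0.16 in knockout, against 6.04 ± 0.19 in wildtype (SD, n = 3 each).

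The contact factors, which start clotting on charged surfaces, had differences in both directions. F12, factor XII, had log2 levels of 7.47, 7.51 and 7.67 in knockout, against 7.28, 7.05 and 7.32 in wildtype. The knockout arrays all lay above the wildtype arrays, with a log2 difference of 0.34 (95% interval 0.0074 to 0.66) and limma adjusted p = 0.692. Kng1, kininogen, the carrier of prekallikrein, had log2 levels of 8.54, 8.69 and 8.69 in knockout, against 9.30, 9.04 and 8.59 in wildtype. Wildtype a and b lay above all 3 knockout arrays, while wildtype c lay among them. The log2 difference was -0.34, with limma adjusted p = 0.705, and it was -0.53 at the other probe set of Kng1. Klkb1, prekallikrein, averaged 4.42 ± 0.63 in knockout, against 4.83 ± 0.77 in wildtype. Its neighbour F11, factor XI, averaged 5.50 ± 0.29 in knockout, against 5.62 ± 0.60 in wildtype (SD, n = 3 each). For both genes the difference was smaller than the SD within either group.

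Of the remaining procoagulant genes, F2, which encodes prothrombin, averaged 9.59 ± 0.14 in knockout, against 9.57 ± 0.22 in wildtype (SD, n = 3 each), with a 95% interval of the difference from -0.26 to 0.30. F5, the cofactor of factor X, averaged 7.71 ± 0.060 in knockout, against 7.50 ± 0.25 in wildtype, and its other probe set differed by -0.0089. Neither gene separated the groups. Vwf, von Willebrand factor, which ties platelets to the vessel wall and is made by endothelium and megakaryocytes, had log2 levels of 8.09, 7.88 and 8.08 in knockout, against 7.78, 7.52 and 7.76 in wildtype. Its knockout arrays were all on top, with a log2 difference of 0.33 (95% interval 0.026 to 0.63) and limma adjusted p = 0.678. Of 10 endothelial markers 7 had a higher mean in knockout, and their summed intensity was 969 to 1121 in knockout, against 902 to 1075 in wildtype. Of 8 megakaryocyte markers 2 had a higher mean, with sums of 7669 to 8940.1 in knockout, against 8417 to 9477 in wildtype. The part of these cells in the Vwf difference was not tested. In arrays of whole tissue, a change in the number of cells of a type and a change in RNA per cell cannot be told apart.

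The dimmest procoagulant genes carried the widest errors. F3, tissue factor, a membrane receptor made outside the liver, had log2 levels of 2.37, 2.43 and 3.39 in knockout, against 2.15, 0.77 and 1.18 in wildtype. Knockout was on top in every array. The mean level of F3 over all arrays, 2.05, falls in a class of probe sets whose median residual SD was 1.39, so its log2 difference of 1.36 (95% interval -0.69 to 3.41) is not an exact size. F8, factor VIII, the cofactor of factor IX, had log2 levels of 4.62, 4.15 and 1.70 in knockout, against 4.94, 5.03 and 3.74 in wildtype. F9, factor IX, had log2 levels of 3.97, 4.37 and 0.26 in knockout, against 4.63, 4.28 and 2.47 in wildtype. In both genes the array lettered c was the lowest of its group. Without knockout c the log2 difference of F9 was 0.38 in place of -0.93, and that of F8 was -0.19 in place of -1.08.

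**Figure D2:**
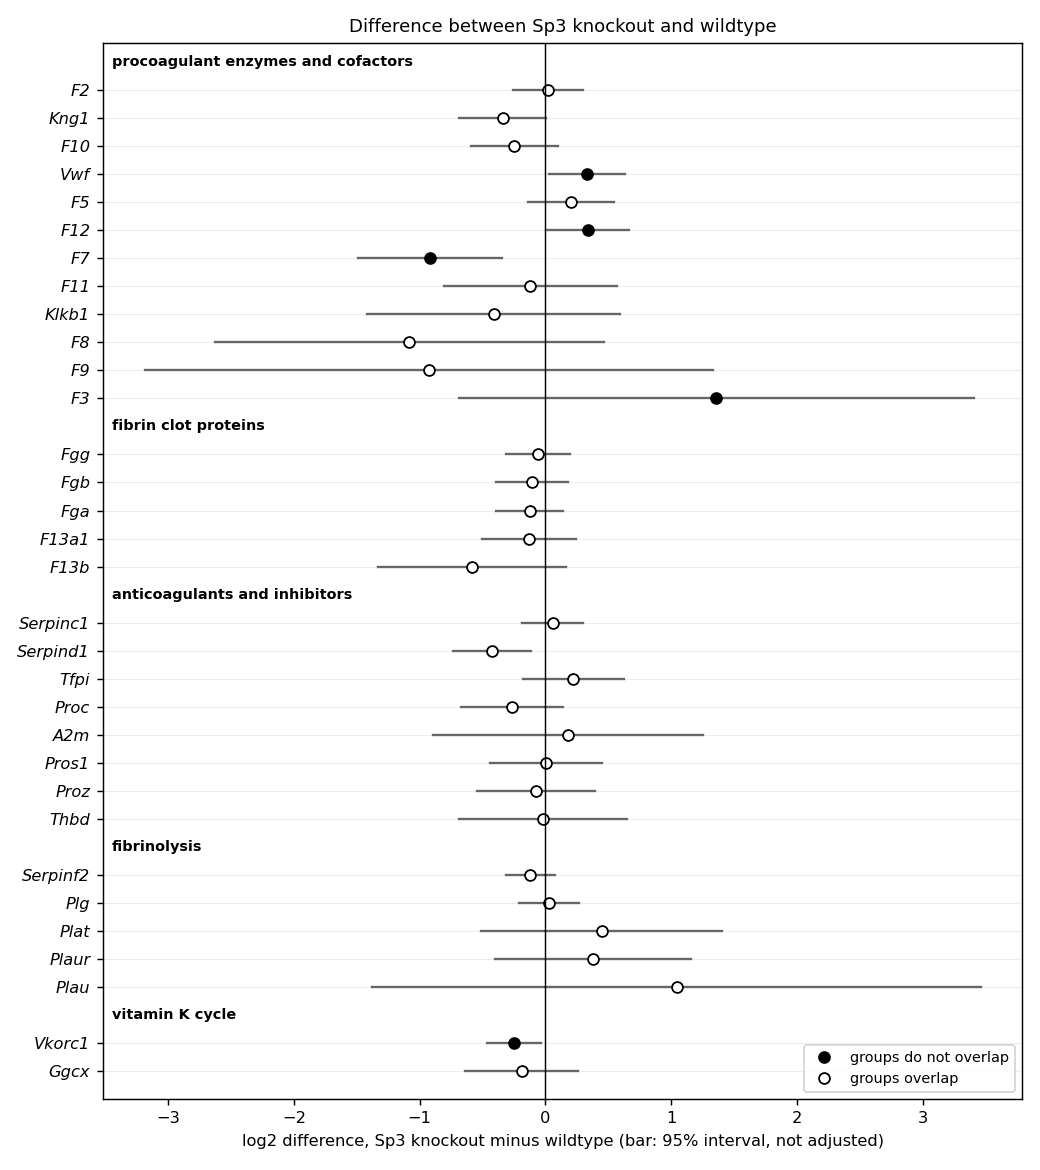
Log2 difference of each member, Sp3 knockout minus wildtype, with its unadjusted 95% interval from limma. Filled points mark the 5 members whose groups do not overlap, from -0.92 for F7 to 1.36 for F3, and the intervals of F8, F9, F3 and Plau are wide.

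The 5 proteins of the fibrin clot all had lower means in knockout with all arrays, with overlapping groups. Fga, Fgb and Fgg encode the 3 chains of fibrinogen and stand side by side on chromosome 3. Fga had log2 levels of 10.20, 10.0003 and 10.15 in knockout, against 10.27, 10.48 and 9.98 in wildtype. Fgb had log2 levels of 10.45, 10.28 and 10.88 in knockout, against 10.73, 10.55 and 10.64 in wildtype. Fgg had log2 levels of 10.82, 10.71 and 10.77 in knockout, against 10.998, 10.96 and 10.52 in wildtype. No chain separated the groups, and the shared direction was not kept: Fgg was 0.011 under quantile normalization and 0.028 without wildtype a, and Fgb was 0.023 without knockout b. Log2 differences were -0.13 for Fga (95% interval -0.39 to 0.14), -0.10 for Fgb (95% interval -0.39 to 0.18) and -0.058 for Fgg (95% interval -0.31 to 0.20). F13b, the carrier subunit of factor XIII, which links fibrin strands, had log2 levels of 5.89, 6.02 and 5.09 in knockout, against 6.93, 6.22 and 5.59 in wildtype. The array lettered c was the lowest in both groups, and the log2 difference was -0.59 (95% interval -1.33 to 0.16) with limma adjusted p = 0.742. F13a1, the catalytic subunit, which macrophages and platelets make, averaged 7.38 ± 0.31 in knockout, against 7.51 ± 0.083 in wildtype (SD, n = 3 each). Beside it, 10 of 10 macrophage markers had a lower mean in knockout, with a median log2 difference of -0.56, and their summed intensity was 1063 to 1659 in knockout, against 2077 to 2147 in wildtype. Their part in the values of F13a1 was not tested.

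Of the anticoagulants and inhibitors, Serpind1 had the smallest p. It encodes heparin cofactor II, an inhibitor of thrombin. Serpind1 had log2 levels of 9.51, 9.42 and 9.30 in knockout, against 9.95, 10.08 and 9.49 in wildtype. Wildtype a and b stood above all knockout arrays and wildtype c just below knockout a, so the groups overlapped. Its log2 difference came to -0.43 (95% interval -0.74 to -0.12), 1.35-fold lower in knockout, with limma adjusted p = 0.611. Serpinc1, antithrombin, another serpin that heparin activates, had log2 levels of 9.92, 9.72 and 10.06 in knockout, against 9.94, 9.89 and 9.70 in wildtype. Its groups overlapped, with a log2 difference of 0.058 (95% interval -0.19 to 0.30), which turned negative after median centring.

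In the protein C system, which switches off factors V and VIII, no member separated the groups. Proc, protein C, averaged 7.48 ± 0.27 in knockout, against 7.74 ± 0.30 in wildtype (SD, n = 3 each). Pros1, its cofactor protein S, averaged 6.89 ± 0.12 in knockout, against 6.89 ± 0.38 in wildtype. Pros1, with the GC boxes shown above, had a 95% interval of the log2 difference from -0.44 to 0.45. Thbd, thrombomodulin, the endothelial receptor through which thrombin activates protein C, averaged 5.63 ± 0.38 in knockout, against 5.66 ± 0.52 in wildtype. Outside that system, Tfpi, the endothelial inhibitor of tissue factor, averaged 8.50 ± 0.25 in knockout, against 8.28 ± 0.36 in wildtype, and its other probe sets differed by 0.073, 0.28 and 0.50. A2m, alpha-2-macroglobulin, a trap for many proteases, averaged 7.38 ± 0.45 in knockout, against 7.20 ± 0.86 in wildtype, with its lowest value, 6.24, in wildtype c.

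For clot removal, plasminogen and its main inhibitor overlapped between the groups. Plg, plasminogen, had log2 levels of 10.24, 10.14 and 10.31 in knockout, against 10.25, 10.37 and 9.98 in wildtype. Serpinf2, alpha-2-antiplasmin, had log2 levels of 10.60, 10.53 and 10.78 in knockout, against 10.81, 10.74 and 10.72 in wildtype. Log2 differences were 0.030 for Plg (95% interval -0.21 to 0.27) and -0.12 for Serpinf2 (95% interval -0.31 to 0.072). The activators of plasminogen and their receptor come mainly from other cells than hepatocytes. Plat, tissue plasminogen activator, averaged 6.80 ± 0.33 in knockout, against 6.35 ± 0.92 in wildtype, where wildtype b, at 5.29, lay below all other arrays. Without wildtype b the log2 difference of Plat was -0.080 in place of 0.45, and at its other probe set it was -0.23. Plaur, the receptor of urokinase, averaged 4.92 ± 0.20 in knockout, against 4.54 ± 0.50 in wildtype. Plau, urokinase, was dim and ran from 0.61 to 4.39 within the wildtype arrays, so its log2 difference of 1.04 (95% interval -1.38 to 3.46) is not an exact size.

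The vitamin K cycle was represented by its reductase and its carboxylase, which many cell types make. Vkorc1, the reductase that warfarin blocks, had log2 levels of 9.25, 9.32 and 9.24 in knockout, against 9.59, 9.49 and 9.50 in wildtype. All knockout arrays lay below all wildtype arrays, and the residual SD of 0.0510 was the smallest of the 32 members. The log2 difference was -0.25 (95% interval -0.47 to -0.039), with limma adjusted p = 0.661. Ggcx, the carboxylase that modifies the clotting factors, averaged 5.93 ± 0.081 in knockout, against 6.12 ± 0.16 in wildtype (SD, n = 3 each), and its other probe set differed by -0.33. Of the 7 listed proteins that this cycle modifies, F7, F9, F10, Proc and Proz had a lower mean in knockout and F2 and Pros1 a higher one, with a median log2 difference of -0.25 and 0 called. The higher means of F2 and Pros1 turned lower after median centring.

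**Figure D3:**
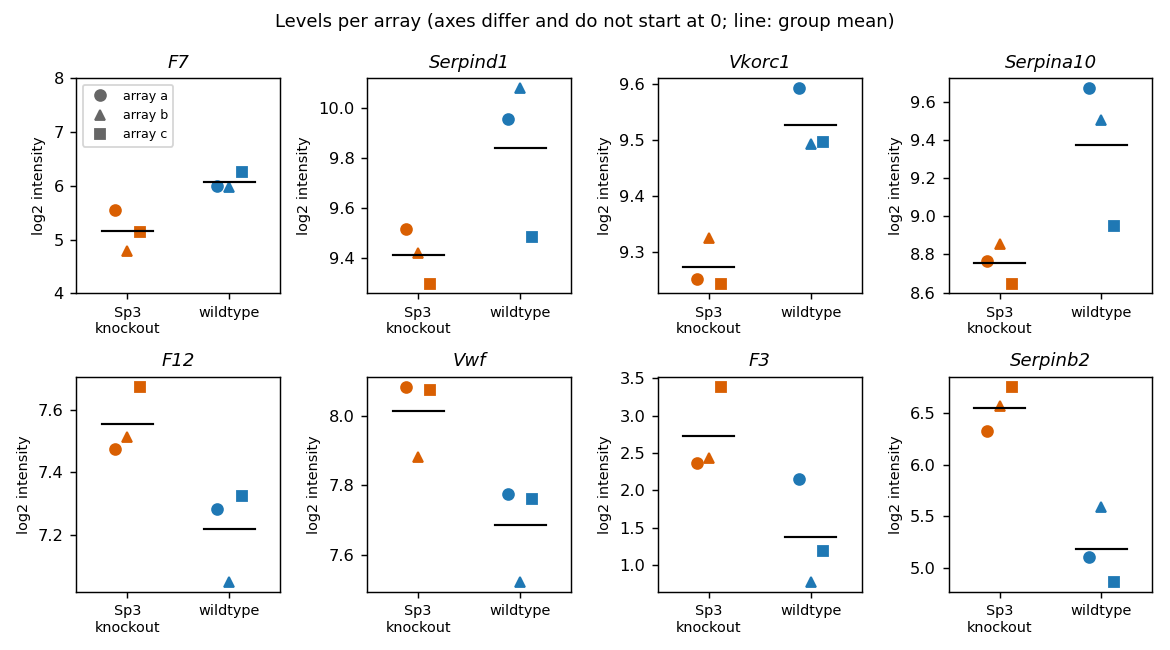
Log2 level per array, Sp3 knockout left of wildtype, for 3 members lower and 3 members higher in mean in knockout, with Serpina10 and Serpinb2 as further genes of the pathway. Each axis has its own range and the line is the group mean. For F7, Vkorc1, F12, Vwf, F3, Serpina10 and Serpinb2 the groups do not overlap, and for Serpind1 wildtype c falls within the knockout range.

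By main source, the 21 members made by hepatocytes had 7 higher and 14 lower means in knockout, a median log2 difference of -0.12 and a median level at percentile 73.1 of all genes. The 9 members made mainly by other cells had 6 higher and 3 lower means, with a median log2 difference of 0.33, which was 0.085 without wildtype b. Of the markers of other cells, 11 of 14 for heart muscle had higher means in knockout, with a median log2 difference of 0.98. Their median level of 3.51 falls in a class of probe sets with a median residual SD of 0.94, so 0.98 is not an exact size. For fibroblasts and smooth muscle 8 of 10 had higher means, with a median of 0.15. Their sums were 5908 to 7123 in knockout, against 5131 to 6140.5 in wildtype. The endothelial markers had a median of 0.11, the megakaryocyte markers -0.041 and the macrophage markers -0.56. Beside the hepatocyte members, 10 of the 12 hepatocyte markers had lower means in knockout, with a median log2 difference of -0.15 and summed intensities of 40526 to 41472 in knockout, against 40353 to 47659 in wildtype. Limma called 0 markers of the 7 lists, and their part in the members' values was not tested. The difference between the sources was not tested either.

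Wildtype c stood apart from the other wildtype arrays over the hepatocyte members. It was the lowest wildtype array in 17 of the 21, or 81.0%, where it was the lowest for 29.1% of all genes. The mean deviation of these 21 genes from their own means, array a to c, came to 0.056, -0.063 and -0.27 in knockout, against 0.28, 0.22 and -0.23 in wildtype. The value of knockout c leans on the dim gene F9, at 0.26 in that array against its mean of 3.33. In F7, F12, Fgb and Pros1 wildtype b was the lowest instead. The array lettered c was the lowest of both groups in 8 of the 21, or 38.1%, beside 14.0% of all genes. Among the knockout arrays alone, c was the lowest in 8 of the 21, or 38.1%, near the 35.6% of all genes. Knockout b was the lowest in 10. The share for both groups thus rests mainly on wildtype c. Over the 12 hepatocyte markers the mean deviations were -0.22, 0.028 and -0.16 in knockout, against 0.17, 0.26 and -0.075 in wildtype, with wildtype c again the lowest wildtype array. Fgl1, the dimmest of these markers, had log2 levels of -0.37, 3.65 and 2.25 in knockout, against 2.14, 3.33 and 4.12 in wildtype. The marker means, that of knockout a above all, lean on this dim gene. The part of hepatocyte RNA in the low values of wildtype c was not tested.

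**Figure D4:**
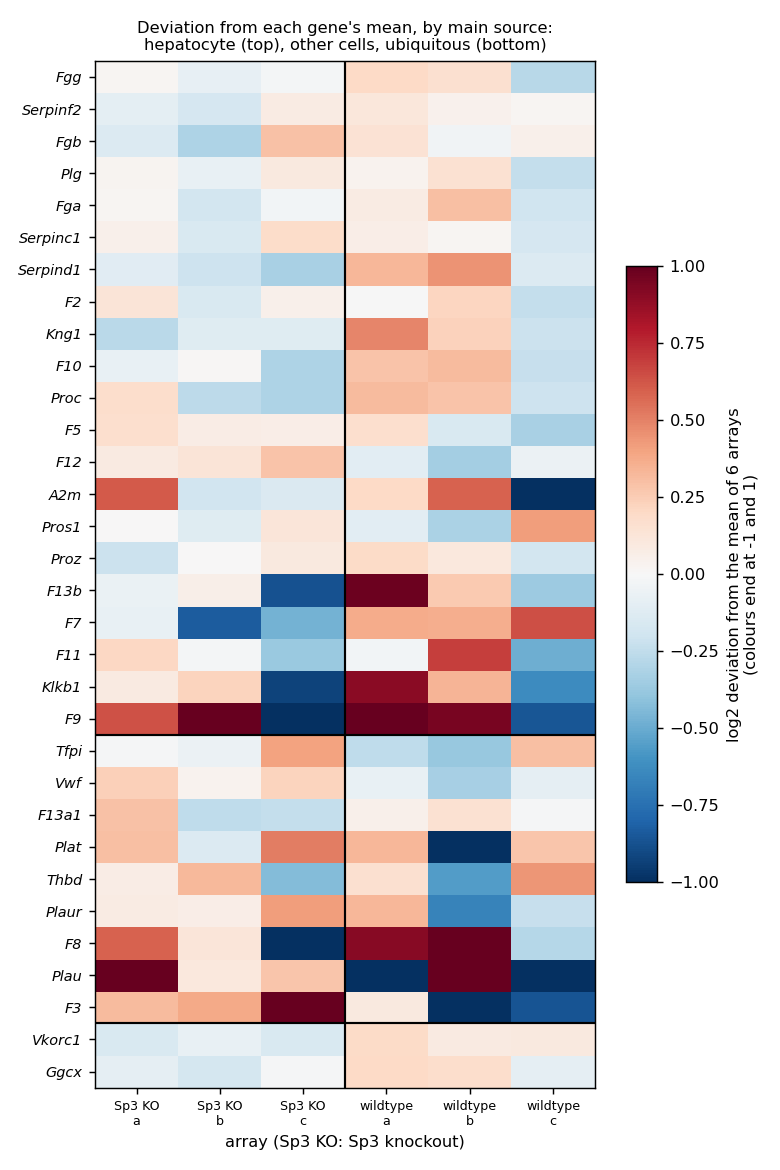
Deviation of each member's log2 level from its mean over the 6 arrays, with Sp3 knockout arrays left and wildtype arrays right and genes ordered by source and level. Wildtype c holds the lowest wildtype value in 17 of the 21 hepatocyte members, and F9, Klkb1 and F13b are low in both arrays lettered c.

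The count of separated members turned on that array. Without wildtype c the groups did not overlap in 17 of 32 members, 13 lower and 4 higher in knockout, or 53.1%, beside 29.8% of all genes. Of these, 11 were hepatocyte members, 10 of them lower. An unadjusted p under 0.05 was then reached by 12 members, 9 of them lower, or 37.5%, beside 11.0% of all genes. Leaving out an array can only add to the genes without overlap. Wildtype c was the lowest wildtype array in 17 of the 21 hepatocyte members, against 29.1% of all genes. The shares of all genes are therefore not a like baseline for either count. The part of the low values of wildtype c in both rises was not tested. Limma still called 0 of the 32, where it called 0.0770% of all genes, and the adjusted p of Serpind1 from limma was 0.189 at a log2 difference of -0.60. The median log2 difference of the hepatocyte members was -0.26 without wildtype c and -0.12 with all arrays, against -0.061 without knockout c, -0.063 without wildtype a, -0.068 without knockout b and -0.049 under quantile normalization. Leaving out knockout a, b or c or wildtype a or b, in that order, left 8, 5, 8, 7 and 6 members with no overlap, beside 23.1, 29.1, 23.3, 24.0 and 23.9% of all genes. An unadjusted p under 0.05 was reached by 2, 4, 4, 2 and 2 members in the same order, beside 6.06, 10.5, 6.08, 6.45 and 6.72%. Limma called 0 members each time, beside 0.0110, 0.0495, 0.0275, 0.0220 and 0.0385% of all genes.

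**Figure D5:**
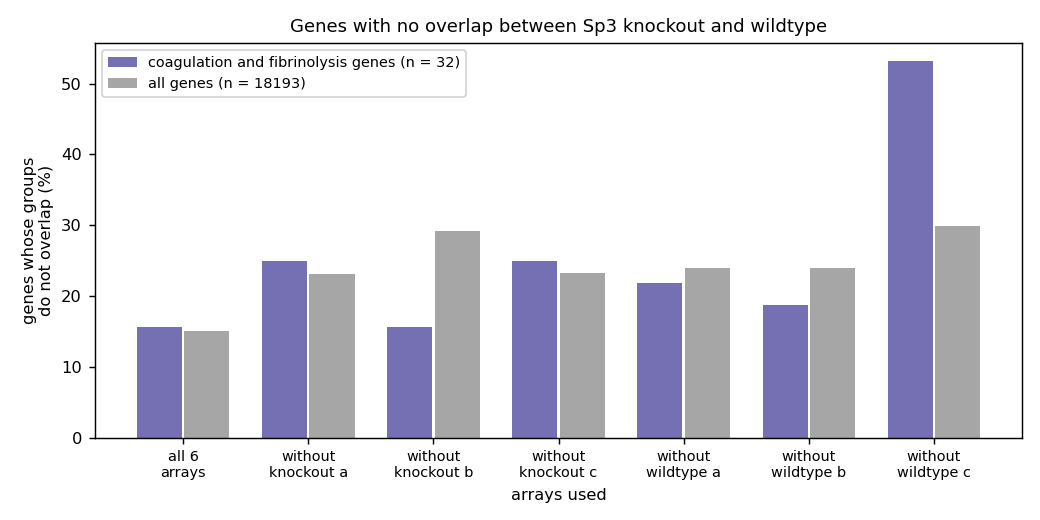
Share of the 32 coagulation and fibrinolysis genes (purple) and of all 18193 genes (grey) whose Sp3 knockout and wildtype arrays do not overlap, with all 6 arrays and without each array in turn. The shares are 15.6% and 15.1% with all arrays and 53.1% and 29.8% without wildtype c. Wildtype c was the lowest wildtype array in most hepatocyte members, so the shares without it are not a like comparison.

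Beyond the 34 genes, a list of 34 other genes of the pathway had 29 with a probe set, of which 10 had a higher and 19 a lower mean in knockout. Limma called 0 of them, with 4 at an unadjusted p under 0.05, or 13.8%, beside 8.71% of all genes, and a median log2 difference of -0.13. The groups did not overlap in 7 of them, or 24.1%, beside 15.1% of all genes. Serpinb2, an inhibitor of plasminogen activators that macrophages and other cells make, had log2 levels of 6.33, 6.57 and 6.76 in knockout, against 5.10, 5.59 and 4.86 in wildtype. Every knockout array lay above every wildtype array. The log2 difference was 1.37 (95% interval 0.82 to 1.92), 2.58-fold higher in knockout, with limma adjusted p = 0.149. Over the alternatives its limma adjusted p ran from 0.0238 to 0.793, and it passed only with the letter of the sample as a block, a fit that called 0 members, beside 0.890% of all genes. The macrophage markers given above had lower means in knockout.

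Serpina10, the protein Z-dependent inhibitor of factor X, had log2 levels of 8.77, 8.86 and 8.65 in knockout, against 9.67, 9.50 and 8.95 in wildtype. The knockout arrays all lay below the wildtype arrays, with wildtype c the nearest. The log2 difference was -0.62 (95% interval -0.97 to -0.26), with limma adjusted p = 0.481, and 0.0373 with the letter as a block. S100a10, a subunit of a plasminogen receptor on cell surfaces, averaged 8.84 ± 0.10 in knockout, against 9.19 ± 0.023 in wildtype (SD, n = 3 each), with limma adjusted p = 0.562. Mcfd2, which with Lman1 carries factors V and VIII out of the endoplasmic reticulum, averaged 8.79 ± 0.12 in knockout, against 8.95 ± 0.019 in wildtype. Neither had overlapping groups. F2r, a thrombin receptor, averaged 10.84 ± 0.12 in knockout, against 10.57 ± 0.23 in wildtype, with limma adjusted p = 0.680, and wildtype c, at 10.78, lay above knockout a and b. Fgl2, a fibrinogen-like prothrombinase, averaged 4.69 ± 0.46 in knockout, against 3.997 ± 0.13 in wildtype, with no overlap and limma adjusted p = 0.742.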

How the data were processed

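Total RNA of 6 samples labelled as single E12.5 hearts was hybridised to 1 oligonucleotide array each, per the labels' protocols. The deposited values are linear intensities per probe set. GCOS and RMA appear in the submitters' processing notes, and the sources used here do not say which of them made these values or in what version. The sample titles do not tie the embryos to litters, so p-values cover only the spread among these arrays, which limits the precision.

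Groups were taken from the sample titles. After 64 controls were left out, 45037 probe sets were taken to log2 and tested with limma 3.58.1 in R 4.3.3 (lmFit, eBayes with intensity trend and robust estimation, two-sided, Benjamini-Hochberg adjusted over all probe sets, threshold 0.05), with no further normalization. The median residual SD ran from 1.27 in the dimmest class of 10 to 0.125 in the brightest. Of the probe sets, 34945 were annotated to 1 gene, 932 to more than 1 and 9160 to none. Each gene used the probe set with its highest mean log2 level. All 32 measured symbols matched GRCm38.p6. The fit was tested on simulated data with independent noise and with changes planted only in probe sets above the median level. That simulation did not cover changes in dim genes or deviations shared by many genes of an array.

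The members, the lists of roles, sources, markers and other pathway genes, and the use of the trend were chosen with earlier results of these data known. Values per array are given for the 10 members of smallest p, those without overlap, the 6 of highest mean and the fibrinogen chains, and also for F9, chosen after its values were seen. Of the other pathway genes the 3 of smallest p per direction are named.

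Alternatives were eBayes without trend, quantile normalization, median centring, 16 intensity units added before log2, dim probe sets left out, array weights, the letter as a replicate block, each array left out, averaged probe sets of a gene, and 1 probe set per gene in the fit.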

Additional observations from a re-analysis of the deposited data

How the results depend on the processing

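Under each of the 15 alternatives limma called 0 members. Of the 32 members and 6 other named pathway genes, 26 kept their direction in every alternative that gave a value. Members at an unadjusted p under 0.05 numbered 5, against 2 without the trend, 8 with the letter as a replicate block (8 of 32, beside 13.6% of all genes), and 2 (without knockout a, wildtype a or wildtype b) to 12 (without wildtype c) when an array was left out. Members with no overlap numbered 5 to 17 when an array was left out, with 8 without knockout a or knockout c. The median log2 difference of members made by other cells lay between 0.085, without wildtype b, and 0.39. The replicate block called 2 other pathway genes, Serpinb2 at limma adjusted p = 0.0238 and Serpina10 at 0.0373, and 162 genes in all (0.890%) in place of 9. The main fit did not pair the arrays by letter. Deviations of the arrays of a letter correlated at -0.0070 for a, 0.050 for b and 0.080 for c over all probe sets. Over those above the median level the values were 0.0095, 0.31 and 0.44. In both, knockout b and c correlated best with their own letter and knockout a with wildtype b. Whether arrays of a letter share an effect was not tested. Median centring gave -0.056 for F2, -0.018 for Serpinc1, -0.073 for Pros1 and -0.046 for Plg, and moved the median of all genes to -0.097. Quantile normalization gave 0.011 for Fgg and -0.0078 for Pros1. With arrays left out in turn, log2 differences that changed sign ran from -0.094 to 0.13 for F2, -1.68 to 0.38 for F9, -0.39 to 0.20 for F11, -0.28 to 0.023 for Fgb, -0.21 to 0.028 for Fgg, -0.021 to 0.15 for Serpinc1, -0.16 to 0.21 for Pros1, -0.19 to 0.013 for Proz, -0.31 to 0.19 for Thbd, -0.30 to 0.52 for A2m, -0.080 to 0.12 for Plg and -0.080 to 0.73 for Plat. The log2 difference of F7 stayed between -1.11 and -0.69, with limma adjusted p between 0.156 and 0.888. The causes were not tested. Without dim probe sets F3, F8, F9, Plau and Fgl2 gave no value.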

Other observations

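Apoh, apolipoprotein H, a plasma protein made by hepatocytes, was picked after its values were seen. Its log2 levels were 8.85, 8.72 and 7.62 in knockout (arrays a to c), against 9.17, 9.13 and 7.33 in wildtype (arrays a to c). In each group the array lettered c lay more than 1 log2 unit below the others. Apoh is 1 of the 12 hepatocyte markers, and none of the others had such a drop in both groups. Knockout c was the highest knockout array for Afp, Apoa2, Rbp4, Vtn and Apob. It was the lowest for Alb, Apoa1 and Ahsg, and lay between the others for Ttr, Hnf4a and Fgl1.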
